A study of Mus musculus with 11 samples.

Results

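The contacts described here join the right-hand part of the En1 domain to the chromatin on its right in capture Hi-C maps of mouse embryo tissue. They are all pairs of 10 kb bins with one bin in chr1:122510001-123080000, called the En1 side below, and the other in chr1:123080001-123860000. The partner bins form 2 intervals of 390 kb each. The near interval, chr1:123080001-123470000, is the stretch named after the genes Insig2 and Ddx18, and the far interval, chr1:123470001-123860000, lies in the desert after Ddx18. With 57 bins on the En1 side and 78 partner bins there were 4446 bin pairs, 2223 for each interval, of the 88410 bin pairs of a map. The edges were chosen by boundaries of the contact signal called on these same maps. A drop of contacts at an edge was therefore used in the choice and is given as a description only.

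In capture Hi-C, crosslinked chromatin is cut (here with DpnII), religated and enriched with baits for one region, so that a read pair reports a contact between 2 loci. The series held 11 libraries of embryonic day 9.5 tissue in 4 groups. Wild-type embryos gave 3 libraries each of forelimb, forebrain and the midhindbrain boundary. The other 2 came from forelimbs of mutants with a stop cassette insertion, titled 3xpA and called mutant forelimb below. No other allele or agent is named, where the cassette lies is not given in the labels, and they do not say how many embryos went into a library. The strain field reads c57bl6.J X 129S6.sv for all 11 libraries, but CD1 stands in the titles of those from wild-type forelimb, so strain and library series cannot be told apart from the group in comparisons with that map. The deposited maps merge the libraries of a group. Each value below is therefore 1 map's value without a replicate error, and every interval covers counting error alone, within which the reads of a library are treated as independent molecules.

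En1 encodes a homeobox transcription factor that patterns the ventral side of the limb bud and the midbrain-hindbrain junction, and the series title links its limb function to the long non-coding RNA Maenli. Chromosomes fold into domains whose loci contact each other more often than loci across a domain boundary, and many boundaries are bound by the factor CTCF. Such a boundary weakens contacts across it but seldom removes them. In the RefSeq annotation of GRCm38.p6, En1 is followed by 9 long non-coding RNA genes and no protein-coding gene before Insig2, which encodes a membrane protein of the endoplasmic reticulum that restrains sterol synthesis. Between Insig2 and Ddx18 lie Ccdc93, which encodes a coiled-coil protein of endosomal sorting, and Htr5b, which encodes a serotonin receptor. Ddx18, which encodes a DEAD-box RNA helicase, is the last protein-coding gene before Dpp10. Only 1 long non-coding RNA gene, 4 pseudogenes and 1 small nucleolar RNA gene are annotated between Ddx18 and Dpp10. The maps are in mm9 coordinates per the submitters' processing notes, so this annotation gives the order of the genes here and not their bins.

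The stretches upstream of 2 start sites are shown because their genes name the ends of the landscape, En1 the domain and Ddx18 the last gene before the desert. Each is the 250 bases before the annotated start, 5′ to 3′ on the gene's strand, from RefSeq in GRCm38.p6 coordinates, which do not apply to the maps. The En1 stretch is chr1:120602237-120602486 on the + strand, and the Ddx18 stretch is chr1:121567981-121568230 on the - strand. Capitals mark a match to AGGGGGCGC, a 9-letter stretch of the CTCF consensus, searched on both strands.
En1: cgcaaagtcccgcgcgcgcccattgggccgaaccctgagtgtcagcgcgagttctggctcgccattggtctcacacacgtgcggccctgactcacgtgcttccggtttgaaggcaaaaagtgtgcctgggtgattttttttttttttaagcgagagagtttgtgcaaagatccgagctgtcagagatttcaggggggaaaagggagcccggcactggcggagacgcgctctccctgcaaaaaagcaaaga
Ddx18: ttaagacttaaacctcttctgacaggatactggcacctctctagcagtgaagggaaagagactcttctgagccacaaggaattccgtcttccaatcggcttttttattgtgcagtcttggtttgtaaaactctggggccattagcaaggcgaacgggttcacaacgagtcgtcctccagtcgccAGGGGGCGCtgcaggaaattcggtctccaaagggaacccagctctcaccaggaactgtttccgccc
The Ddx18 stretch held 1 match, on the gene's own strand and 57 bases before the start. No match was found upstream of En1, Dpp10 or any of the 3 Insig2 starts in the table, and Ccdc93 and Htr5b were not matched to the table. Of the 32851 promoter stretches of this length in the table, 364 (1.11%) held the letters. A match describes the sequence and is no measure of binding.

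The raw maps held 8823849 contacts in wild-type forelimb, 7662227 in mutant forelimb, 9489482 in forebrain and 9523316 in midhindbrain boundary. Signal is given below as deposited, after Knight-Ruiz (KR) balancing, which equalises the summed signal of all bins of a map. That sum was 38053.4 in wild-type forelimb, 31773.9 in mutant forelimb, 39519.5 in forebrain and 39745.4 in midhindbrain boundary. KR signals of different maps are therefore not on one scale. Observed over expected is the KR signal of a bin pair divided by the mean of all bin pairs of that map at the same distance, so that 1 is the average for the distance. Means of it leave out the 3 bin pairs of the near interval closer than 30 kb.

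The En1 side met the near interval at 1.01 to 1.17 times the average of the region at the same distance, and the far interval at 0.561 to 0.743 times. The shares of contacts given first are not corrected for distance, and the far interval lies farther away. Of the contacts of the En1 side at 30 kb or more, the near interval took 18.8% in wild-type forelimb (95% interval by Wilson 18.8 to 18.9), 18.7% in mutant forelimb (18.6 to 18.7), 19.5% in forebrain (19.5 to 19.6) and 21.8% in midhindbrain boundary (21.7 to 21.9). The share of the far interval was 3.41% in wild-type forelimb (3.38 to 3.44), 4.48% in mutant forelimb (4.44 to 4.52), 3.12% in forebrain (3.09 to 3.15) and 3.30% in midhindbrain boundary (3.27 to 3.34). The midhindbrain boundary map thus had the largest near share and the mutant map the largest far share, and the Wilson intervals of these 2 maps overlapped none of the other 3 for that share.

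Corrected for distance, the near interval stood at 1.01 times the expected signal in wild-type forelimb (counting SD 0.0025), 1.03 in mutant forelimb (counting SD 0.0029), 1.06 in forebrain (counting SD 0.0026) and 1.17 in midhindbrain boundary (counting SD 0.0027). The far interval stood at 0.597 in wild-type forelimb (counting SD 0.0034), 0.743 in mutant forelimb (counting SD 0.0042), 0.561 in forebrain (counting SD 0.0034) and 0.582 in midhindbrain boundary (counting SD 0.0035). The mean near level was thus above the regional average for its distances in the 4 maps, and the far level was below it. Single near bin pairs reached 1 or more in 841 of 2223 cases in wild-type forelimb, 889 in mutant forelimb, 967 in forebrain and 1112 in midhindbrain boundary. For the far interval these counts were 85, 294, 111 and 127 in the same order. Depth differed greatly between the intervals: the median near bin pair held 69 to 97 raw contacts and the median far bin pair 16 to 18. Between 1 and 11 far bin pairs of a map were empty, and no near bin pair was.

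**Figure D1:**
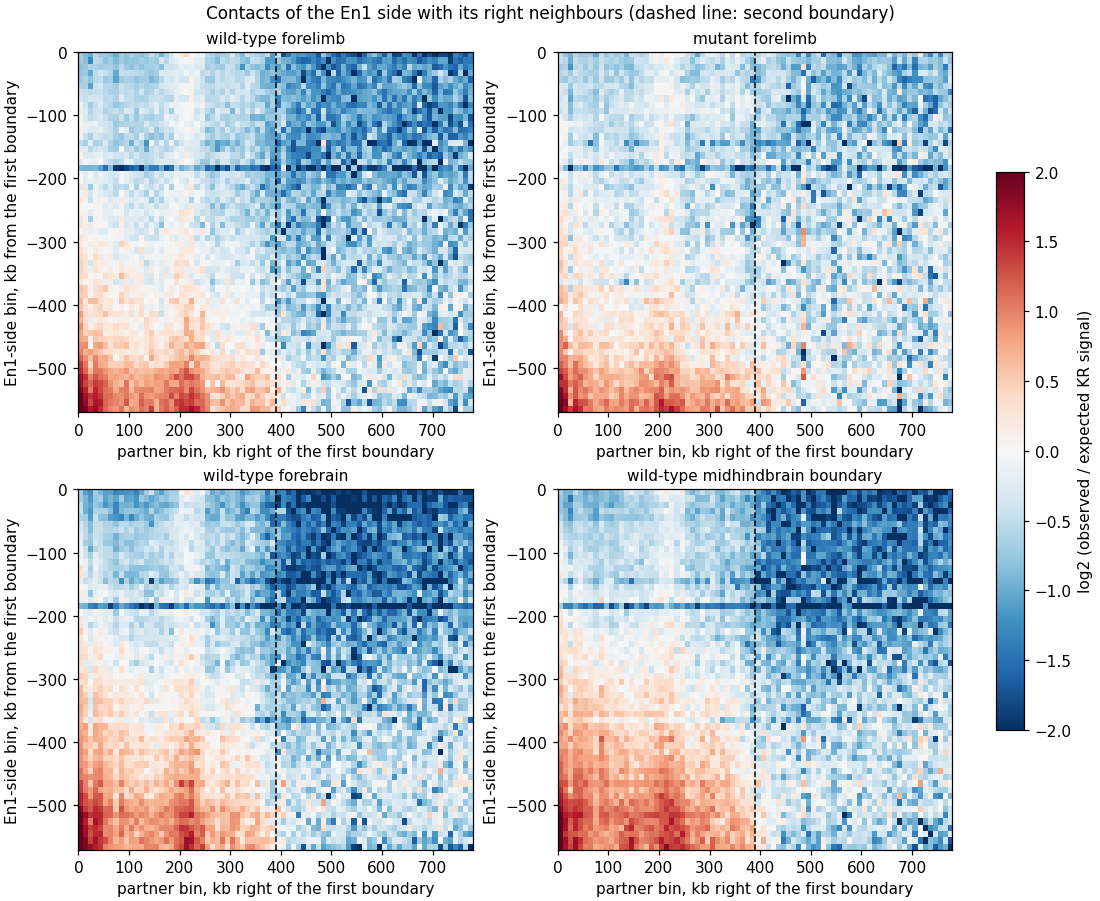
Observed over expected KR signal (log2 colour scale, saturated at the ends of the bar) of each of the 4446 bin pairs, with the partner bin on the horizontal axis and the En1-side bin on the vertical axis, both in kb from the first boundary, 1 panel per map. Red cells gather at the lower left, where the distal end of the En1 side meets the near interval, and the far interval right of the dashed line is mostly blue, palest in mutant forelimb.

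The heat maps showed one layout in all 4 maps. With the En1 side in 3 equal parts of 190 kb and each interval in 3 equal parts of 130 kb, the left part met each part of the near interval most and the right part met it least. The left part of the En1 side with the first part of the near interval was the highest of the 18 blocks in each map, at 1.67 in wild-type forelimb, 1.57 in mutant forelimb, 1.90 in forebrain and 2.03 in the midhindbrain boundary. The right part with that same first part stood at 0.688 in wild-type forelimb, 0.728 in mutant forelimb, 0.658 in forebrain and 0.690 in midhindbrain boundary, although these bins adjoin. Far blocks were all below 1, in wild-type forelimb from 0.438 to 0.759, in mutant forelimb from 0.593 to 0.944, in forebrain from 0.336 to 0.781 and in midhindbrain boundary from 0.364 to 0.836.

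Near and far intervals were then compared at matched distance, over the distances from 400 to 950 kb that both intervals offer. There were 1443 bin pairs of each interval in this range. Near contacts exceeded far contacts in all 56 distance strata of every map. The mean KR signal in wild-type forelimb was 70.5 near (counting SD 0.24) and 28.1 far (counting SD 0.23), a 2.51-fold difference. In mutant forelimb it was 52.9 near (counting SD 0.21) and 28.4 far (counting SD 0.22), or 1.87-fold. In forebrain it was 73.7 near (counting SD 0.25) and 22.0 far (counting SD 0.19), or 3.35-fold. In midhindbrain boundary it was 81.7 near (counting SD 0.26) and 23.9 far (counting SD 0.21), or 3.41-fold.

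On the log2 scale the near over far ratio was 1.77 in midhindbrain boundary (95% counting interval 1.75 to 1.80), 1.74 in forebrain (1.72 to 1.77), 1.33 in wild-type forelimb (1.30 to 1.35) and 0.90 in mutant forelimb (0.87 to 0.92). The brain maps did not differ beyond counting error, with a difference of 0.027 (-0.010 to 0.064). Wild-type forelimb was below forebrain by -0.42 (-0.45 to -0.38) and below midhindbrain boundary by -0.44 (-0.48 to -0.41). Mutant forelimb was below wild-type forelimb by -0.43 (-0.46 to -0.39). These intervals hold no spread between replicates.

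**Figure D2:**
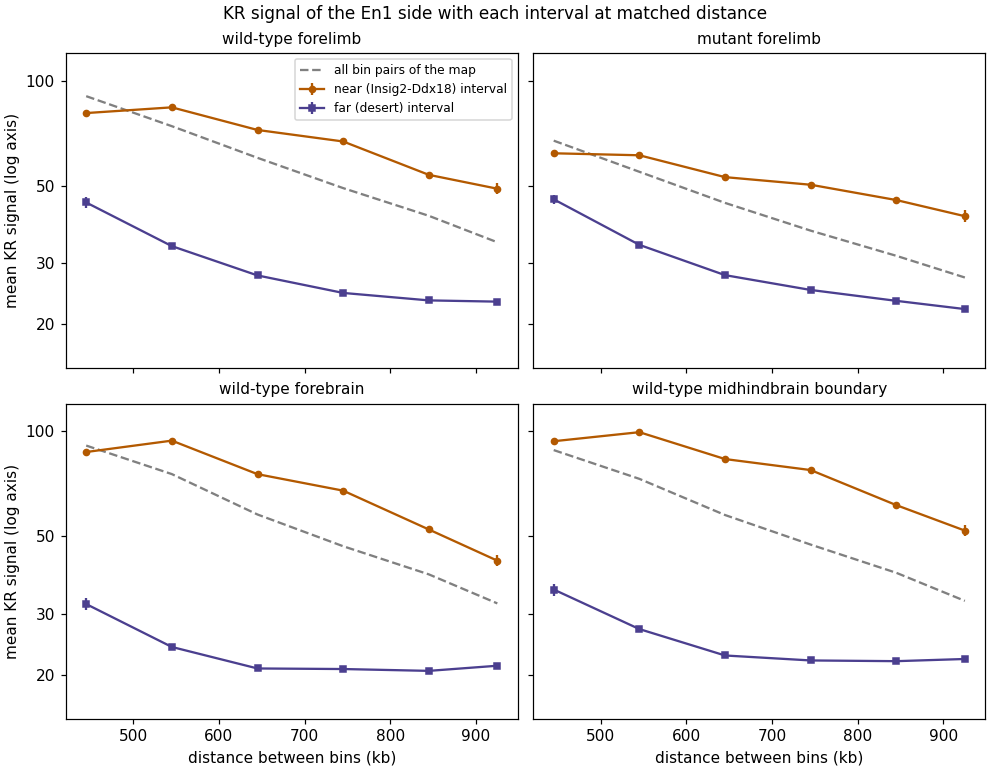
Mean KR signal (log axis) of the En1 side with the near interval (circles) and the far interval (squares) in bands of distance between bins, with the mean of all bin pairs of the map as a dashed line and counting SDs as bars, 1 panel per map. The far interval lies below the near interval and below the dashed line in every band, and the gap is narrowest in mutant forelimb, where it starts at 61.9 against 45.7 from 400 to 490 kb.

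The far signal hardly fell over part of this range in the brain maps. In forebrain it was 20.9 from 600 to 690 kb and 21.3 from 900 to 950 kb, while the mean of all bin pairs went from 57.7 to 32.1. Midhindbrain boundary ran from 22.8 to 22.2 over the same bands. In wild-type forelimb the far signal went from 27.6 to 23.2, and in mutant forelimb from 27.7 to 22.1. The mean of all bin pairs went from 60.0 to 34.4 in wild-type forelimb and from 44.6 to 27.2 in mutant forelimb. The near signal was above the mean of all bin pairs in each band from 500 kb onward in the 4 maps.

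A match on distance leaves another difference between the intervals. At the same distance the near interval is met by bins from the left of the En1 side and the far interval by bins from its right, and these bins differ in how much they contact the right flank at all. The ratio was therefore taken within each part of the En1 side, with 171 bin pairs per interval at the distances that part offers, a choice made after seeing the data. These distances reach only the end of the near interval and the start of the far interval, on either side of their shared edge. The whole-side ratio draws on all partner bins. In the left part, from 780 to 950 kb, it was 0.95 in wild-type forelimb (0.88 to 1.02), 0.71 in mutant forelimb (0.65 to 0.78), 0.84 in forebrain (0.77 to 0.91) and 0.86 in midhindbrain boundary (0.80 to 0.93). In the middle part, from 590 to 760 kb, it was 0.54 in wild-type forelimb (0.46 to 0.61), 0.13 in mutant forelimb (0.053 to 0.20), 0.74 in forebrain (0.66 to 0.82) and 0.77 in midhindbrain boundary (0.69 to 0.85). In the right part, from 400 to 570 kb, it was 0.33 in wild-type forelimb (0.26 to 0.39), 0.067 in mutant forelimb (-0.0018 to 0.13), 0.63 in forebrain (0.56 to 0.71) and 0.64 in midhindbrain boundary (0.57 to 0.72).

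Within parts the ratios were well under those of the whole En1 side, but both the En1-side bins and the partner bins had changed. In the right part the mutant map showed no difference between these stretches beyond counting error. Over the whole intervals it did differ there. Its right-part blocks stood at 0.728, 0.799 and 0.732 times expected near, and at 0.625, 0.593 and 0.600 far. The mutant map was below wild-type forelimb in each part, by -0.23 in the left (-0.33 to -0.14), -0.41 in the middle (-0.51 to -0.30) and -0.26 in the right (-0.36 to -0.16). Wild-type forelimb was below forebrain in the middle part by -0.20 (-0.31 to -0.092) and in the right part by -0.31 (-0.41 to -0.21), but above it in the left part by 0.11 (0.013 to 0.21). Against midhindbrain boundary these differences were -0.23 (-0.34 to -0.13), -0.32 (-0.42 to -0.22) and 0.084 (-0.0095 to 0.18). In these stretches the direction against forebrain thus depended on the part, and the left-part interval against midhindbrain boundary included 0. Over the whole intervals, left-part blocks of forelimb over forebrain ran from -0.19 to -0.11 near and from -0.14 to 0.054 far. Against midhindbrain boundary they ran from -0.31 to -0.29 near and from -0.14 to 0.017 far.

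**Figure D3:**
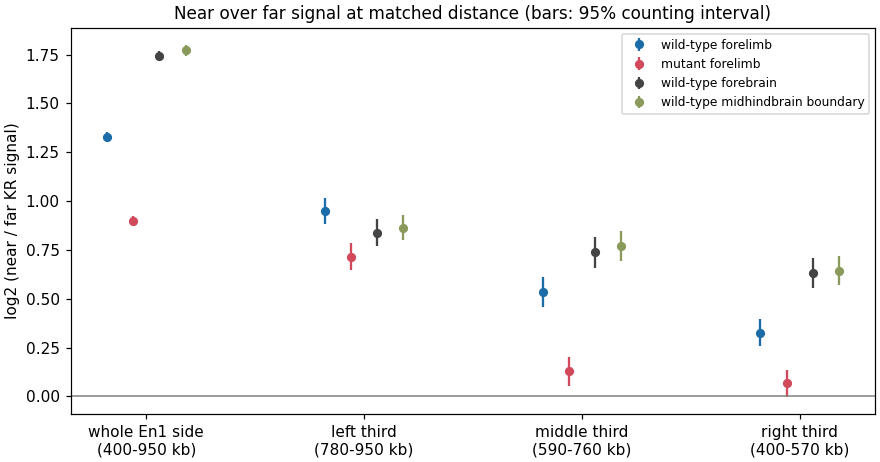
Log2 ratio of near to far KR signal at matched distance for the whole En1 side and for each of its 3 parts, with 95% counting intervals as bars and maps by colour. Values fall from 1.33 over the whole side to 0.33 in the right part in wild-type forelimb, and mutant forelimb is lowest in every column. The parts draw on fewer partner bins than the whole side.

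Along the partner bins, contact with the En1 side fell, rose again inside the near interval and was lower over the far interval. The bin 123080001-123090000, just across the first boundary, had the highest mean of the 78 partner bins in all 4 maps, at 1.56 in wild-type forelimb (counting SD 0.016), 1.52 in mutant forelimb (counting SD 0.018), 1.84 in forebrain (counting SD 0.017) and 1.81 in midhindbrain boundary (counting SD 0.017). Its neighbour 123090001-123100000 was second in all 4, at 1.30, 1.34, 1.45 and 1.47 in the same order. A second rise lay inside the near interval, where 123300001-123310000 reached 1.27 in wild-type forelimb, 1.25 in mutant forelimb, 1.39 in forebrain and 1.40 in midhindbrain boundary. In wild-type forelimb it was the next highest bin after those at the boundary.

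The lowest partner bins in wild-type forelimb all lay in the far interval. They were 123570001-123580000 at 0.520, 123760001-123770000 at 0.524 and 123550001-123560000 at 0.526. In mutant forelimb the same bins stood at 0.649, 0.610 and 0.625, in forebrain at 0.465, 0.503 and 0.491, and in midhindbrain boundary at 0.506, 0.525 and 0.496. None of the 39 far bins reached 1 in any map, and 18 of the 39 near bins did so in each forelimb map, 21 in forebrain and 33 in midhindbrain boundary.

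Around the second boundary the last near bin and the first far bin differed little. They stood at 0.707 and 0.665 in wild-type forelimb, 0.763 and 0.803 in mutant forelimb, 0.629 and 0.640 in forebrain, and 0.775 and 0.688 in midhindbrain boundary. Means over 100 kb on each side differed more: 0.835 before and 0.604 after it in wild-type forelimb, 0.933 and 0.800 in mutant forelimb, 0.835 and 0.561 in forebrain, and 0.945 and 0.616 in midhindbrain boundary. The level was already falling before the edge, so these means do not show a sharp step. From 123410001-123420000 to the last near bin it went from 0.888 to 0.707 in wild-type forelimb and from 1.03 to 0.763 in mutant forelimb. In forebrain it went from 0.909 to 0.629, and in midhindbrain boundary from 1.02 to 0.775. At the far end of the rule, the last bin inside and the next bin outside stood at 0.588 and 0.573 in wild-type forelimb, 0.760 and 0.706 in mutant forelimb, 0.614 and 0.551 in forebrain, and 0.600 and 0.535 in midhindbrain boundary.

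**Figure D4:**
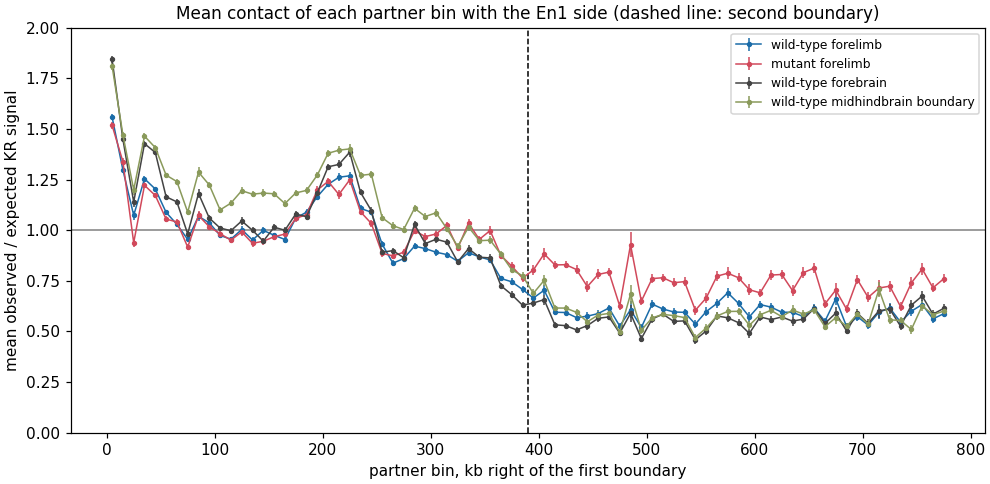
Mean observed over expected KR signal of each partner bin with the En1 side against its distance in kb from the first boundary, with counting SDs as bars and 1 line per map. All lines start above 1.5, rise again inside the near interval and lie below 1 right of the dashed second boundary, where the mutant line is above the other 3.

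Profiles over the 39 near bins were alike between maps, with Pearson's r of 0.936 for mutant and wild-type forelimb, 0.981 for wild-type forelimb and forebrain, 0.979 for wild-type forelimb and midhindbrain boundary and 0.981 for the brain maps. Over the 39 far bins r was 0.631, 0.669, 0.636 and 0.660 in that order. Bins share baits and mappability between maps, and the far bins hold fewer reads, so these correlations are descriptions.

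On the En1 side, the highest means over all partner bins in wild-type forelimb belonged to the leftmost bins, 122510001-122520000 at 1.45, 122520001-122530000 at 1.41 and 122530001-122540000 at 1.37. The first of these stood at 1.48 in mutant forelimb, 1.33 in forebrain and 1.44 in the midhindbrain boundary. The next bin to the left, just outside the rule, was as high, at 1.52 in wild-type forelimb, 1.59 in mutant forelimb, 1.30 in forebrain and 1.50 in the midhindbrain boundary. The lowest bin was 122890001-122900000, at 0.359 in wild-type forelimb, 0.461 in mutant forelimb, 0.295 in forebrain and 0.299 in midhindbrain boundary. It was thinly covered, with 12815 contacts in wild-type forelimb, the 11th lowest of 420 bins, and whether coverage bears on its value was not tested. In wild-type forelimb the bins at the first boundary came next, 123070001-123080000 at 0.531 and 123060001-123070000 at 0.533. They ranked 51st and 52nd from the top of 57 bins in mutant forelimb, 55th and 54th in forebrain, and 52nd and 55th in midhindbrain boundary. In wild-type forelimb their coverage of 43089 and 61934 contacts was above the median bin of 38561. Each of the 57 bins met the near interval more than the far interval, relative to distance, in all 4 maps.

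The strongest single bin pair among those with at least 30 contacts was the same in the 4 maps. It joined 122510001-122520000 to 123080001-123090000 over 570 kb, from the outermost En1-side bin to the bin just across the first boundary. It held 493 raw contacts in wild-type forelimb (5.99 times expected), 328 in mutant forelimb (5.29), 615 in forebrain (6.78) and 416 in midhindbrain boundary (5.26). Second in all 4 maps came the pair of 122520001-122530000 with that partner, at 4.52, 3.85, 5.83 and 5.25 times expected in the same order. The third pair shared the partner as well, with the En1-side bin 122530001-122540000 in 3 maps and 122560001-122570000 in midhindbrain boundary, at 4.33 times expected. A single partner bin therefore supplied all the pairs named here, and these pairs are not independent of each other.

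Of the 2 intervals, the far one differed more between mutant and wild-type forelimb. The rise in the share of En1-side contacts went on past the far interval, where the rest of the region to the right took 3.57% in mutant forelimb (Wilson 95% interval 3.54 to 3.61) and 2.87% in wild type (2.84 to 2.90). Observed over expected in that interval was 0.743 in the mutant map and 0.597 in wild type, a log2 ratio of 0.32 (95% counting interval 0.29 to 0.34), and all 9 far blocks were higher in the mutant map, by 0.14 to 0.47. The highest, 0.47 (counting SD 0.033), joined the right part of the En1 side to the first part of the far interval, with 6928 raw contacts against 6397 in the deeper wild-type map. The lowest, 0.14 (counting SD 0.032), joined the left part to the middle of the far interval. For the near interval the log2 ratio was 0.022 (0.011 to 0.032), which turned to -0.0046 when raw contacts were scaled by depth alone. Near blocks lay on both sides of 0, from -0.085 for the left part with the first part of the interval to 0.21 for the right part with its last part.

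Over single bin pairs, the median log2 ratio of the mutant map over wild type was 0.33 for the 1909 far pairs tested of 2223 and 0.043 for the 2215 near pairs tested, against 0.016 over all 44337 bin pairs tested. Of the far pairs 75.5% were higher in the mutant map, against 52.3% of all pairs. In the exact binomial test with Benjamini-Hochberg adjustment over all pairs, 4 far pairs were called higher at 2-fold or more, 0.210% of those tested, beside a background of 0.018% called higher over the region. No far pair was called lower, beside a background of 0.00677%, and no near pair was called either way. Unadjusted p-values under 0.05 were found for 222 far pairs higher and 8 lower in the mutant map, 11.6% and 0.419% of those tested. For near pairs the counts were 101 higher and 58 lower, 4.56% and 2.62%. Over all pairs the shares were 4.82% higher and 3.88% lower, so the near shares lay below the background in both directions.

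The called pairs stood at 0.194 to 0.372 times expected in wild type and at 0.848 to 1.07 times in the mutant map. The pair 122780001-122790000 with 123610001-123620000, 830 kb apart, had 27 raw contacts in mutant forelimb and 8 in wild-type forelimb (adjusted p = 0.048 by the exact binomial test, with a log2 ratio of 2.23). Forebrain had 14 and midhindbrain boundary 22. The pair 122940001-122950000 with 123690001-123700000 had 43 contacts against 18 (adjusted p = 0.032 by the exact binomial test, with a log2 ratio of 1.70), with 25 in forebrain and 23 in midhindbrain boundary. For 122880001-122890000 with 123500001-123510000 the counts were 58 against 30 (adjusted p = 0.031 by the exact binomial test, with a log2 ratio of 1.41), with 30 and 38 in the brain maps. The last, 123070001-123080000 with 123490001-123500000, had 78 against 42 (adjusted p = 0.034 by the exact binomial test, with a log2 ratio of 1.18), with 36 in each brain map. For 3 of the 4 pairs the mutant count was above those of all wild-type maps by at least 18 contacts, and for the first by 5. None was called when the variance was inflated to 1.45 times counting error, its mean over all pairs tested.

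The mutant map also stood closer to the expected signal in some other weak bin pairs of the region. Pairs between the near and far intervals were at 0.622 in mutant forelimb and 0.565 in wild-type forelimb. The En1 side with the 390 kb left of the strong boundary beside En1 went the other way, at 0.826 and 0.897. Among the 27969 other bin pairs 400 to 1340 kb apart, 8210 averaged under 0.7 times expected over the brain maps, a limit set after seeing the data. Their mean was 0.617 in wild-type forelimb and 0.680 in mutant forelimb, a log2 ratio of 0.14. Far pairs under that same limit, 1567 in number, stood at 0.544 and 0.689, a log2 ratio of 0.34. Whether a general loss of contrast has a part in the far difference was not tested.

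**Figure D5:**
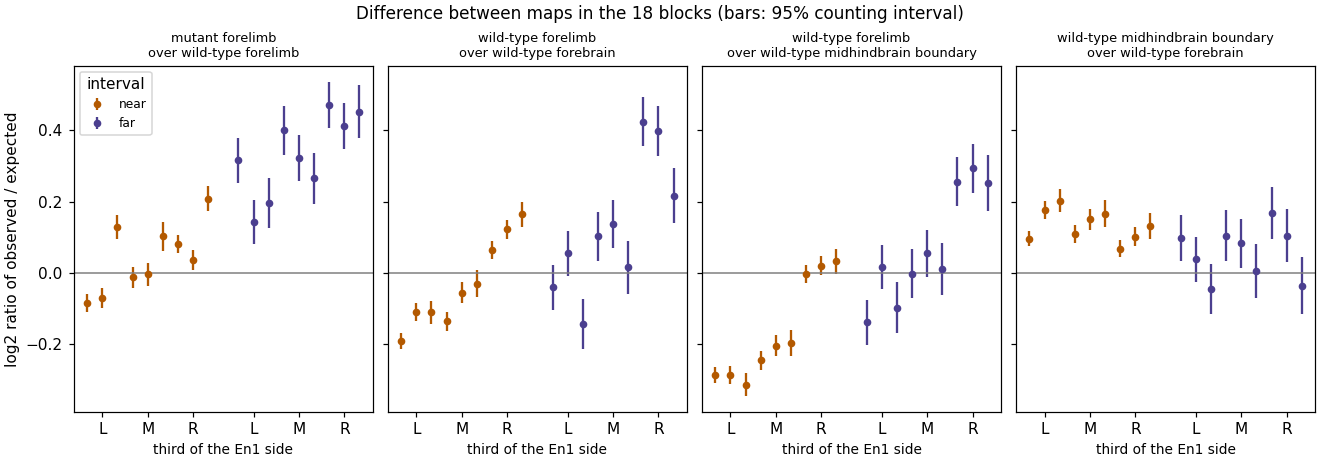
Log2 ratio of observed over expected between maps in the 18 blocks, 1 panel per comparison, with near blocks then far blocks, ordered by the left (L), middle (M) and right (R) part of the En1 side and within each by position along the interval. Bars are 95% counting intervals. All 9 far blocks of mutant over wild-type forelimb lie above 0, and those of wild-type forelimb over forebrain reach 0.42 in the right part.

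Between wild-type tissues, forelimb had fewer near contacts than brain and, next to the first boundary, more far contacts. The near log2 ratio was -0.068 for forelimb over forebrain (95% counting interval -0.078 to -0.058) and -0.21 for forelimb over midhindbrain boundary (-0.22 to -0.20). The far log2 ratio was 0.089 (0.065 to 0.11) and 0.037 (0.014 to 0.060). Both comparisons use the same forelimb map. The near difference was strongest at the left of the En1 side, where the first near block stood at -0.19 (counting SD 0.011) against forebrain and the last at -0.31 (counting SD 0.016) against midhindbrain boundary. In the right part the near blocks ran the other way against forebrain, higher in forelimb by 0.064 to 0.16. There, the 3 far blocks were higher in forelimb by 0.22 to 0.42 against forebrain and by 0.25 to 0.29 against midhindbrain boundary.

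The median log2 ratio of forelimb over midhindbrain boundary was -0.17 for near pairs and 0.062 for far pairs, against 0.0074 over the 44285 bin pairs tested. Only 29.3% of near pairs were higher in forelimb, against 51.0% of all pairs. In the exact binomial test 6 near pairs and 1 far pair were called lower in forelimb, 0.271% and 0.054% of those tested, beside a background of 0.0226%. A single far pair and no near pair were called higher, beside a background of 0.0271%. The called near pair with the lowest adjusted p joined 122640001-122650000 to 123360001-123370000, with 58 contacts in forelimb and 121 in midhindbrain boundary (adjusted p = 0.0014 by the exact binomial test, with a log2 ratio of -1.11). Forebrain had 97 and mutant forelimb 77. The next, 122600001-122610000 with 123440001-123450000, had 44 and 101 (adjusted p = 0.0015 by the exact binomial test, with a log2 ratio of -1.24), with 66 in forebrain and 51 in mutant forelimb. The pair 122580001-122590000 with 123300001-123310000, the partner bin of the second rise, had 63 and 115 (adjusted p = 0.0047 by the exact binomial test, with a log2 ratio of -1.03), with 100 in forebrain and 66 in mutant forelimb. Wild-type forelimb was the lowest map in the 3 pairs by observed over expected as well. In the first, mutant forelimb at 1.49 times expected was level with forebrain at 1.47, with wild-type forelimb at 0.786 and midhindbrain boundary at 1.70.

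The remaining named pairs of this comparison were 122740001-122750000 with 123390001-123400000, at 53 against 99 contacts (adjusted p = 0.010 by the exact binomial test, with a log2 ratio of -1.05), and the far pair 122680001-122690000 with 123490001-123500000, at 20 against 56 (adjusted p = 0.015 by the exact binomial test, with a log2 ratio of -1.49). The far pair called higher in forelimb joined 123010001-123020000 to 123550001-123560000, with 44 against 16 contacts (adjusted p = 0.039 by the exact binomial test, with a log2 ratio of 1.53). Mutant forelimb and forebrain had 45 and 42 there, so midhindbrain boundary was the map that stood apart.

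Against forebrain, the median log2 ratio of wild-type forelimb was -0.028 for near and 0.12 for far pairs, with 0.0017 over the 44306 pairs tested. One near and 1 far pair were called higher in forelimb, 0.045% and 0.054% of those tested, beside a background of 0.0113%, and none was called lower, beside 0.00451%. The near pair joined 122930001-122940000 to 123220001-123230000, with 37 contacts against 11 (adjusted p = 0.042 by the exact binomial test, with a log2 ratio of 1.79). Mutant forelimb had 17 there and midhindbrain boundary 14. By observed over expected, wild-type forelimb was highest at 0.980, followed by mutant forelimb at 0.586, midhindbrain boundary at 0.358 and forebrain at 0.274. The far pair joined 123070001-123080000 to 123660001-123670000, also with 37 against 11 (adjusted p = 0.044 by the exact binomial test, with a log2 ratio of 1.79), with 23 in mutant forelimb and 24 in midhindbrain boundary. No member pair was called under the inflated variance, 1.40 times counting error here and 1.52 times for midhindbrain boundary.

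The brain maps differed in the near interval too. Midhindbrain boundary over forebrain gave a log2 ratio of 0.14 near (95% counting interval 0.13 to 0.15) and 0.052 far (0.028 to 0.076). All 9 near blocks were higher in midhindbrain boundary, by 0.068 to 0.20, and far blocks ranged from -0.046 to 0.17. Near pairs had a median log2 ratio of 0.14, and 72.4% were higher in midhindbrain boundary, against 49.8% of the 44029 pairs tested. The exact binomial test called no member pair in either direction, beside backgrounds of 0.00908% higher and 0.00454% lower. At an unadjusted p under 0.05, 204 near pairs were higher and 25 lower, 9.21% and 1.13% of those tested, beside 3.41% and 3.50% over all pairs. The 45 far pairs higher and 34 lower, 2.49% and 1.88%, lay below those background shares.

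The near interval was also set beside the flank on the other side of the domain. Unlike the near interval, this flank, the 390 kb left of the strong boundary beside En1 at chr1:122080001-122470000, does not adjoin the En1 side. The range of distances therefore differs between the flanks. The En1 side met it at 0.897 times expected in wild-type forelimb, 0.826 in mutant forelimb, 0.931 in forebrain and 0.864 in midhindbrain boundary, below the near interval in each map. In the same order, contacts inside the near interval stood at 0.957, 0.992, 0.936 and 0.911, and those inside the En1 side at 1.32, 1.26, 1.35 and 1.27. The near interval's own level was thus below its mean with the En1 side, but its inside pairs span shorter distances. In wild-type forelimb the near blocks ran from 1.16 to 1.67 in the left part, from 0.740 to 0.980 in the middle and from 0.633 to 0.779 in the right. The right-part near blocks were below the level inside the near interval in each map. The near and far intervals met each other at 0.565 in wild-type forelimb, 0.622 in mutant forelimb, 0.511 in forebrain and 0.493 in midhindbrain boundary.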

How the data were processed

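Capture Hi-C contacts were read from 1 raw and 1 balanced map per group, each merged by the authors from 2 or 3 libraries. Per the labels, which list the map names, reads went through HiCUP with a mapping quality of 30 and 10 kb bins. The submitters' processing notes name Bowtie2 2.3.4.1, Juicer 1.7.6 and mm9, without their roles. The deposited raw maps hold contact counts, with missing bin pairs read as 0. The Knight-Ruiz (KR) signal comes from the deposited balanced maps. Each value was checked to be the raw count over the product of the factors of its bins. Balancing removes differences that act on a whole bin, real ones included.

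Groups were taken from the sample titles. The members, edges and named lists were chosen with earlier results of these data known. Named regions were the called pairs (up to 5 per comparison and direction), the 3 strongest pairs per map with at least 30 contacts, the 3 highest and lowest bins in wild-type forelimb, the highest and lowest of 18 blocks, and the genes in order. The blocks, matched-distance ratios and shares carry counting error: Poisson SDs with KR factors held, or Wilson 95% intervals.

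Bin pairs from 30 kb to 1340 kb apart with at least 20 counts over 2 maps were compared by a two-sided exact binomial test (smaller tail doubled), with the expected share from distance and KR factors, Benjamini-Hochberg adjustment over all pairs, and a call at adjusted p under 0.05 and 2-fold. Log2 ratios used a prior count of 0.5. The test was checked on simulated data. It compares the reads of merged maps, not conditions. edgeR was not used, since it needs replicates. Python 3.11.15, numpy 2.4.6, scipy 1.17.1 and statsmodels 0.14.6 were used.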

Additional observations from a re-analysis of the deposited data

How the results depend on the processing

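The order of the 4 maps in the near over far ratio at matched distance (mutant forelimb, wild-type forelimb, forebrain, midhindbrain boundary, from lowest) held under each alternative on the whole En1 side, but the size of the ratio did not. The brain maps did not differ beyond counting error in the main setting, so their places in that order are by value only. In that order, raw counts gave 1.46, 1.93, 2.27 and 2.37, equal weights for the strata 0.81, 1.20, 1.62 and 1.65, and leaving out bins within 20 kb of the boundaries 0.97, 1.40, 1.82 and 1.86. Observed over expected at all distances gave 0.47, 0.76, 0.92 and 1.01, or 0.47, 0.78, 0.94 and 1.03 with the expected signal taken without the members. Single parts of the En1 side, added after seeing the data and with fewer partner bins, gave 0.71, 0.95, 0.84 and 0.86 (left), 0.13, 0.54, 0.74 and 0.77 (middle) and 0.067, 0.33, 0.63 and 0.64 (right). The order of the wild-type maps turned in the left part, where forelimb and midhindbrain boundary did not differ beyond counting error. Leaving out thin bins, under 25% of the median bin's contacts, moved no ratio beyond its counting interval.

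Calls among the members depended on the error model. With inflated variance, 4, 2 and 8 calls (mutant over wild-type forelimb, forelimb over forebrain, forelimb over midhindbrain boundary) became 0, 0 and 0. Without KR factors the mutant comparison had 25 calls among 4124 members (0.201% called over all pairs) and midhindbrain boundary over forebrain 1 of 4025 in place of 0 (0.0273% over all pairs). Without a minimum fold there were 13 of 4079 for forelimb over forebrain, 57 of 4080 for forelimb over midhindbrain boundary and 3 of 4025 for the brain maps, beside 0.257%, 0.458% and 0.170% over all pairs. Bins of 20 kb gave 7 of 1063 for forelimb over forebrain and 0 for forelimb over midhindbrain boundary, beside 0.0863% and 0.0777% over all pairs. The cause was not tested. A limit of 1 Mb, minimum counts of 10 or 40, and leaving out thin bins kept every count within 1.5 times.

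The near log2 ratio of the forelimb maps went from 0.022 to -0.0046 with depth scaling alone, and the other 7 interval ratios kept their sign in all alternatives. No paired analysis was possible because the maps merge the libraries, and for the same reason no replicate could be left out. Far bin pairs held a median of 16 to 18 contacts, which limits the precision of single pairs.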
